A study of Mus musculus with 56 samples.

Results

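Pools of neural stem cells from the developing mouse neocortex were used to ask how far 2 independent amplifications of the same few cells give the same expression profile. The arrays described here are the 4 hybridizations of that pool, of 56 in the series, and they were chosen by their labels: 2 of target amplified by GA and 2 of target amplified by SMART. Per the labels, 8 to 10 progenitor cells were isolated from embryonic neocortex at E11.5 and their RNA was divided into 4 aliquots. The methods give another number of cells and state that 2 aliquots went to each method. No treatment, genetic change or strain is named, and all 4 aliquots come from the same pool, so the values below describe 1 pool.

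GA (global amplification) adds a poly(A) tail to first-strand cDNA and amplifies it by PCR. SMART (switching mechanism at the 5' end of the RNA template) lets the reverse transcriptase switch to a second primer, which then serves for PCR. Replica 1 and replica 2 are the independently amplified aliquots of a method, and they were hybridized against each other on a 2-color array and again with the dyes swapped. Every value is a log2 ratio of replica 1 over replica 2, so a positive value is a higher signal in replica 1. Both arrays of a method hold the same 2 amplified targets. Their agreement therefore measures labeling and hybridization, and the p-values below measure that spread alone. Replica numbers of GA and SMART name different aliquots, so a shared or an opposite sign between the methods has no meaning.

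Neural progenitors at this age line the ventricle, divide, and begin to give rise to neurons. Notch receptors hold them in the progenitor state: after ligand binding the receptor is cut by gamma-secretase, and its intracellular part acts with Rbpj to switch on repressors of the Hes and Hey families, which silence proneural genes such as Neurog2. A cell that escapes the signal leaves the cell cycle and starts to make neuronal proteins such as Gap43 and Tubb3. A pool of so few cells can hold both states, but the same RNA went into both replicas of a method.

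The values used are ratios without intensities, so the signal behind a ratio is unknown, and depth is given as a count of measured probes. Of 21766 probes that are no controls, 12433 had a value on GA array 1 and 16266 on GA array 2, and 11722 (53.9%) had one on both. SMART array 1 held 14872 values and SMART array 2 held 11292, with 11005 (50.6%) on both. The share of probes with a value averaged 65.9% for GA and 60.1% for SMART, and the 2 methods overlapped (exact two-sided permutation test, p = 0.667; the smallest p that 2 arrays against 2 allow is 0.333).

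The label of neural progenitor cells could be checked only by which probes gave a value, since both channels hold the same cells and a ratio shows no level. Hes1, a Notch target that represses neuronal differentiation, and Gap43, a growth cone protein of young neurons, had a value on all 4 arrays. Probes of the progenitor list had a value on both arrays in 74.4% (GA) and 65.1% (SMART), and probes of the early neuron list in 80.9% and 61.7%. Sox2, a transcription factor of neural stem cells, had a value on both GA arrays and on neither SMART array. Lists of other cells were detected in part as well. Blood reached 81.8% in GA and 72.7% in SMART, endothelium 62.5% and 56.3%, macrophages 60.0% and 66.7%, mesenchyme 50.0% and 61.1%, surface epithelium 35.7% and 42.9%, and ovarian surface cells 75.0% and 58.3%. A value on the array thus did not separate neural genes from genes of cells that the label does not name, and these data neither bear out nor contradict the label.

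The log2 ratios between replicas spread more after GA than after SMART. The paper reports that SMART narrows log ratios between the cell lines. It holds it likely that SMART replicates look less noisy for that reason. No correction for this was made here, and its part in the values below was not tested. CR, the coefficient of repeatability, equals 2 SD of the ratios of all measured probes on the log2 scale. It was 0.774 and 0.738 on the GA arrays and 0.530 and 0.460 on the SMART arrays. Both GA arrays lay above both SMART arrays, by 1.53 times in the mean (0.756 ± 0.0255 against 0.495 ± 0.0496, SD, n = 2 arrays). An exact two-sided permutation test of these arrays gave p = 0.333, the smallest value possible, and an adjusted p of 0.381 over 8 such comparisons. On single arrays 241 and 270 probes exceeded a 2-fold difference after GA, and 78 and 20 after SMART. For scale, a GA target of OV (a cell line of ovarian surface epithelium) hybridized against itself had a CR of 0.286 with 14 such probes.

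Averaging the dye swap separated a difference between the replicas, which keeps its sign when the dyes are turned, from a difference between the dyes, which does not. For GA the averaged pair had a CR of 0.704 and the dye part (how far each turned array lies from their average) 0.355, a ratio of 1.99. Random error of single arrays enters both, so the dye part does not measure dye differences alone. For SMART both were alike, at 0.355 and 0.361. Across probes the turned GA arrays correlated at r = 0.596 (Spearman's rho 0.594), and 8299 of 11722 probes (70.8%) had the same sign on both. The turned SMART arrays did not correlate, at r = -0.0163 (rho -0.0758), and 5157 of 11005 probes (46.9%) shared a sign. These correlations are descriptions across probes, which are not independent. The dye swap thus repeated the replica difference for most GA probes, whereas most SMART ratios did not recur when the dyes were exchanged.

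**Figure D1:**
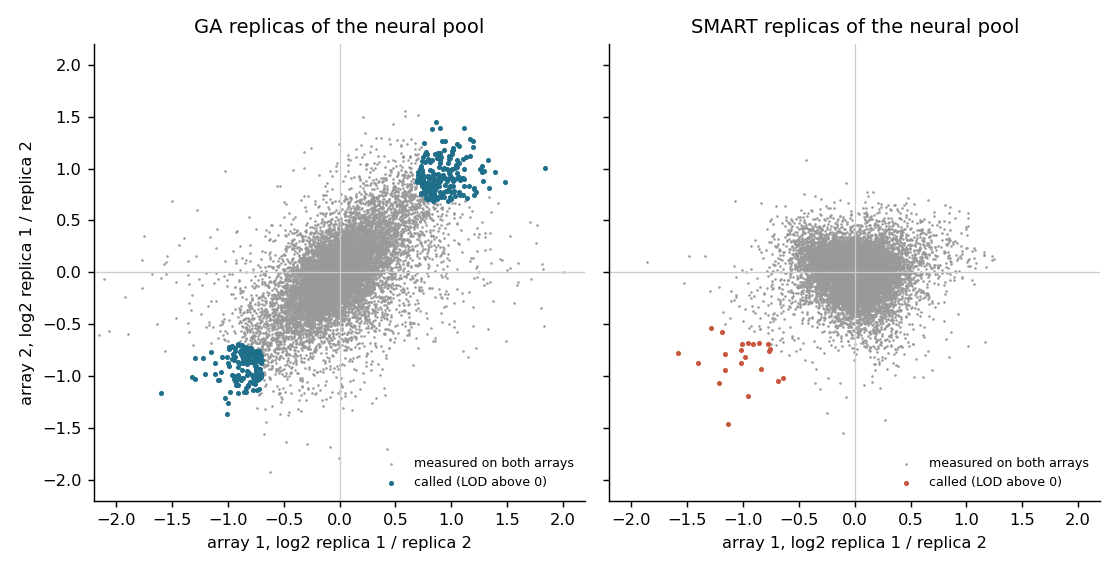
Log2 ratio of replica 1 over replica 2 on array 1 (horizontal axis) and on array 2 with the dyes swapped (vertical axis), 1 point per probe, with called probes colored. GA ratios spread along the diagonal (r = 0.596), SMART ratios form a cloud without a diagonal (r = -0.0163), and the 22 called SMART probes all lie at the lower left.

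The most similar comparison in the series used 10 pg of OV total RNA, with 2 amplifications by each method. There the CR of single arrays was 1.47 and 1.01 for GA and 0.751 and 0.681 for SMART, above both neural arrays of the same method. Each of these comparisons of 2 arrays with 2 gave p = 0.333 in the exact two-sided permutation test, again the smallest possible. The turned OV arrays correlated at r = 0.820 for GA and 0.538 for SMART. In the averaged pair 1582 of 15845 GA probes and 43 of 7280 SMART probes of OV exceeded 2-fold. In the neural pool 90 GA probes (0.768%) and 6 SMART probes (0.0545%) did. SMART probes with a value on both arrays were fewer in OV (33.4%) than in the neural pool (50.6%), and GA probes were more numerous in OV (72.8% against 53.9%). The amount of RNA per aliquot is given for OV and not for the neural cells, so amount and cell type cannot be told apart.

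**Figure D2:**
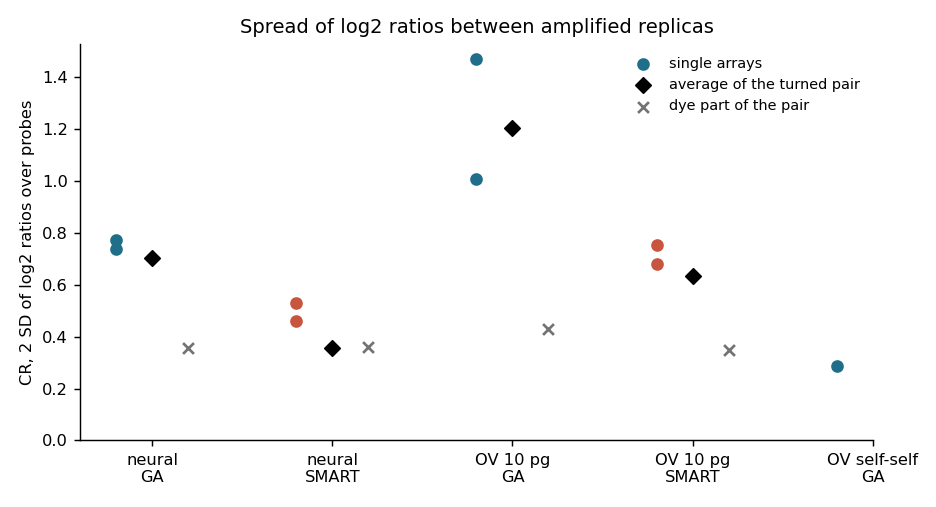
CR (2 SD of log2 ratios over probes) of single arrays (circles), of the average of a turned dye-swap pair (diamonds) and of its dye part (crosses), for the neural pool, for OV at 10 pg and for 1 GA self-self array of OV. The averaged neural SMART pair (0.355) lies at the level of its own dye part (0.361), whereas the other pairs lie above theirs.

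Between the GA replicas 368 probes were called, at a log odds of differential expression (LOD) above 0 in limma. This is 3.14% of the 11722 tested, with 216 higher (1.84%) and 152 lower (1.30%) in replica 1. Called probes had averaged ratios of at least 0.74 on the log2 scale, with a median size of 0.87, and 68 of them exceeded 2-fold. Between the SMART replicas 22 probes were called, 0.200% of 11005 tested. None of these was higher in replica 1 and 22 were lower. After the arrays of a method were scaled to the same spread, 44 SMART probes were called, 8 higher and 36 lower, and 143 GA probes. With all 4 arrays in 1 fit, 199 GA and 2 SMART probes were called. Of the GA probes 1352 (11.53%) had a Benjamini-Hochberg adjusted p under 0.05 in limma, and of the SMART probes 1 (0.00909%). After the scaling to the same spread, 0 GA probes and 11 SMART probes had an adjusted p under 0.05 in limma. The counts by adjusted p below come from the unscaled fit and depend on that choice. Without adjustment, 3505 of 11722 GA probes and 567 of 11005 SMART probes had a p under 0.05 in limma. The SMART share is close to the 0.05 expected by chance, and the GA share is above it.

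Of the 10 genes named as highest in GA replica 1, 4 act in mitochondria. The share of mitochondrial genes among all probes was not counted, so no enrichment is claimed. Dap3 and Mrps11, proteins of the small subunit of the mitochondrial ribosome, gave 1.11 and 1.39 (Dap3) and 1.19 and 1.27 (Mrps11) on arrays 1 and 2. Etfdh, which passes electrons from fatty acid oxidation to the respiratory chain, gave 1.39 and 0.97. Ptcd2, a mitochondrial RNA-binding protein, gave 0.90 and 1.39. All 4 were called, as the naming rule required, with fold differences of 2.21 to 2.39. Mitochondrial genes called lower in GA replica 1 included Tomm5 and Ndufa10.

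The other genes called higher in GA replica 1 had varied roles. Nr2c1, an orphan nuclear receptor, had the largest averaged ratio, 1.42 ± 0.59 (SD, n = 2 arrays), and the widest gap between its arrays, at 1.84 and 1.00. Rasl11b, a small GTPase of the Ras family, gave 1.16 and 1.29, and Stk38l, a kinase of the NDR family, gave 1.33 and 1.08. Polk, a DNA polymerase that copies past lesions, gave 0.86 and 1.45, and Rif1, which controls replication timing, gave 1.28 and 1.03, with its other probe, not called, at 0.36 and 0.62. A probe named for Tyms-ps, a thymidylate synthase pseudogene, gave 1.19 and 1.21, and it may share signal with its parent gene. The naming rule took only probes with the same sign on both arrays, so every GA value of these 10 genes was positive. The adjusted p in limma was 0.027 for each.

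Genes called lower in GA replica 1 included Ccna2, the cyclin A of dividing cells, at -1.29 and -1.02. Neuronal surface proteins were also among them: Adam22, a receptor for Lgi proteins at synapses, gave -1.09 and -1.04, and Ntng2, a netrin G that guides axons, gave -1.08 and -1.04. Tomm5, a subunit of the mitochondrial import pore, gave -1.21 and -0.97, and Faim, an inhibitor of apoptosis, gave -0.997 and -1.26. Each of these probes was negative on both arrays, as the naming rule required. Adam22 has another probe, not called, at -0.063 and 0.31.

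The other genes among the 10 with the lowest averages, of 152 probes called lower, were Ccdc71 at -1.01 and -1.37, Pdap1 at -1.32 and -1.01, Cnppd1 at -1.03 and -1.21, Surf2 at -0.98 and -1.15, and Trp53i13, a p53-inducible gene, at -1.29 and -0.83. The averages of these 10 called probes ran from -1.19 to -1.06 on the log2 scale, each at an adjusted p of 0.027 in limma.

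Cxcl1, a chemokine, was the one SMART probe with an adjusted p under 0.05 (0.049 in limma). It gave -1.13 and -1.46, an averaged ratio of -1.30 ± 0.23 (SD, n = 2 arrays). On GA it had a value on 1 array only, at -0.23. Ndufa10 and Ndufa5, subunits of respiratory complex I, gave -1.58 and -0.78 and -1.02 and -0.87, at adjusted p = 0.101 for both in limma. Ppil3, a cyclophilin-type prolyl isomerase of the spliceosome, gave -1.22 and -1.07, and Fkbp7, a prolyl isomerase of the endoplasmic reticulum, gave -1.16 and -0.94.

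Regulators were among the other SMART calls. Crbn, the substrate receptor of a ubiquitin ligase, gave -1.40 and -0.87, and Rwdd3, which enhances sumoylation, gave -0.98 and -0.82. Phf14, a PHD finger protein of chromatin, gave -0.96 and -1.19, and Gatad1, a zinc finger protein of chromatin, gave -1.16 and -0.79. Washc1, part of the complex that builds actin on endosomes, gave -1.02 and -0.75. Their LOD was above 0, but apart from Cxcl1 no adjusted p was under 0.05.

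No probe was called higher in SMART replica 1, so the largest positive averages are given as values. They were Arid4b at 1.01 and 0.57, Taf1d at 1.01 and 0.52, Naa38 at 0.93 and 0.59, Atp5e at 0.85 and 0.63, and Nudt11 at 1.01 and 0.45. Each was larger on array 1 than on array 2.

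**Figure D3:**
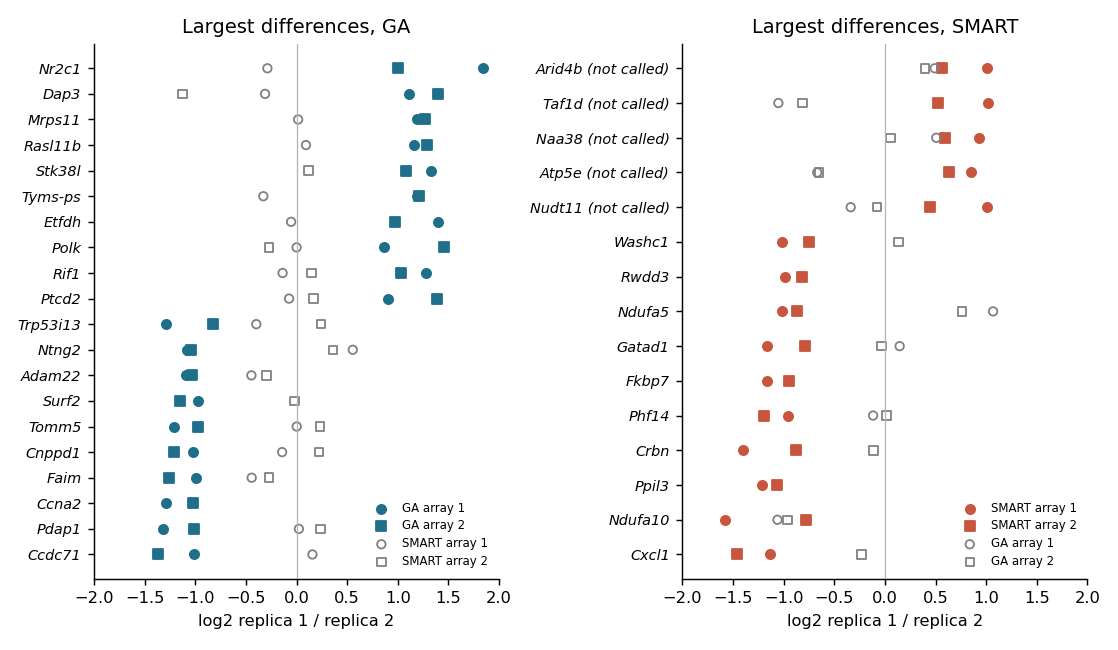
Log2 ratio of replica 1 over replica 2 on each array for the genes with the largest averaged differences after GA (left) and SMART (right), with filled symbols for the method that named the gene and open symbols for the other method. Each gene is shown by the probe that named it. By the naming rule, filled symbols of a probe lie on 1 side of 0. Open symbols at left mostly lie near 0 or are missing. At right, those of Ndufa10, Ndufa5, Taf1d and Atp5e lie away from 0 on both GA arrays, and several others are missing. Signs are not comparable between methods.

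Of the 8182 probes with a value on all 4 arrays, 197 were called after GA (2.41%) and 14 after SMART (0.171%). Both sets held 4 probes, which is 2.03% of the GA set and 28.6% of the SMART set. They were Ndufa10, Ndufa5, Prrc2c, an RNA-binding protein, and Trmt112, a cofactor of methyltransferases. Ndufa10 gave -1.06 and -0.96 after GA and was the 1 gene past 2-fold in both methods, of 49 and 2. Ndufa5 gave 1.07 and 0.76 after GA, Prrc2c 1.11 and 1.00, and Trmt112 -0.84 and -0.72. After SMART, Prrc2c gave -0.86 and -0.68 and Trmt112 -0.76 and -0.74. Across the 8182 probes the averaged ratios of the methods did not correlate (r = -0.00246), while the dye parts correlated at r = 0.251.

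GA differences were larger at probes that SMART did not detect. Probes measured on both GA arrays but on no SMART array numbered 1470, and their averaged CR was 0.885. It was 0.741 for 2070 probes with a value on 1 SMART array and 0.657 for 8182 probes with a value on both. The share called went from 6.12% to 3.91% and 2.41%, and the correlation of the GA arrays from r = 0.777 to 0.675 and 0.523. Of the 368 called GA probes 53.5% had a value on both SMART arrays, against 69.8% of all GA probes. Split the same way by GA detection, the SMART CR was 0.403, 0.330 and 0.357, and the share called was 0.420% (3 probes), 0.237% (5 probes) and 0.171% (14 probes). What sets a missing value is not stated in the sources used here, and its part in these differences was not tested.

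**Figure D4:**
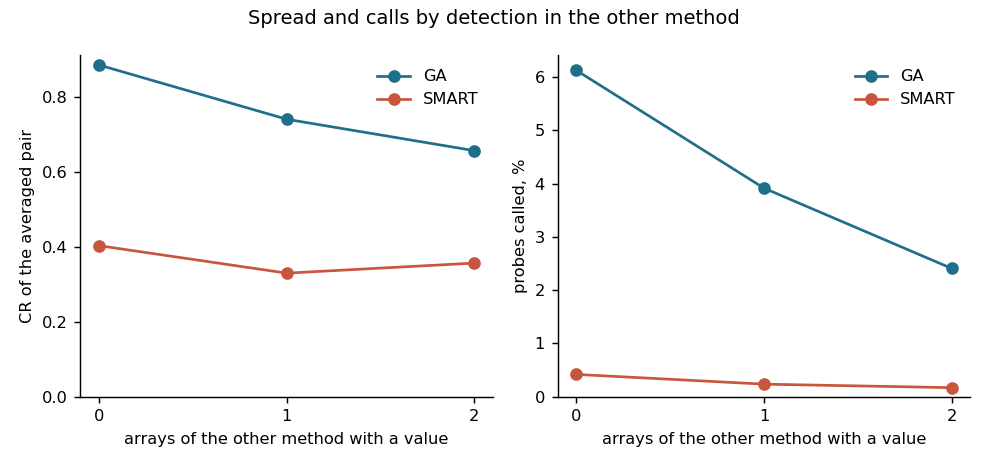
CR of the averaged pair (left, log2 units) and share of probes called (right, percent) for probes with a value on 0, 1 or 2 arrays of the other method. GA values go down from 0.885 to 0.657 and from 6.12% to 2.41%. The SMART CR lies between 0.330 and 0.403, and the SMART share goes from 0.420% to 0.171% on 3 to 14 called probes.

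Different probes of 1 gene rarely repeated a replica difference. For 390 genes with 2 probes measured on both GA arrays, the averaged ratios of the probes correlated at r = 0.0886 and 57.2% had the same sign. For 316 such genes after SMART it was r = 0.0399 and 47.8%, and for the GA replicas of OV at 10 pg, with 632 genes, r = 0.0298. Unamplified cDNA of OV against 3T3, a fibroblast line, gave r = 0.711 over 568 genes by the same measure, in a comparison of different cells. Of the genes called after GA, 19 had another measured probe. None of these had 2 probes called, and in 10 all probes had the same sign. Of all GA probes only 3.14% were called, so few second calls could arise among so few probes. Their absence is therefore no result about these genes. Calls were made per probe, and most called genes rest on 1 measured probe.

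Notch pathway probes with a value on both arrays numbered 24 after GA and 21 after SMART, of 32. After GA 1 was called (4.17%, beside 3.14% of all probes). An adjusted p under 0.05 in limma was found for 4 (16.7%, beside 11.53% of all probes), none of them higher in replica 1. The called gene was Heyl, a repressor downstream of Notch, at -0.93 and -0.76. Hes1 gave -0.67 and -0.98, an averaged ratio of -0.83 ± 0.22 (SD, n = 2 arrays), with an adjusted p of 0.028 in limma and an LOD under 0, so it was not called. The other 2 were subunits of gamma-secretase: Ncstn gave -0.54 and -0.62, and Psen2 gave -0.47 and -0.54. All values of these 4 genes were negative on both GA arrays.

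Other members of the pathway lay on both sides of 0. Among the ligands, Dll1 gave 0.29 and 0.61 and Dll3 gave 0.23 and 0.43, and among the receptors Notch1 gave -0.48 and -0.51, Notch2 -0.19 and 0.28, and Notch3 0.11 and -0.26 after GA. The gamma-secretase subunit Psenen gave 0.33 and 1.29, and Mfng, which modifies Notch with sugars, gave -1.46 and -0.10. Over the 24 probes 9 were positive and 10 negative on both arrays, with a median averaged ratio of -0.06. After SMART no Notch probe was called or had an adjusted p under 0.05 in limma. Hes1 gave -0.11 and -0.14 there, Notch1 -0.03 and -0.33, Rbpj -0.10 and -0.15, and Hey1 0.26 and 0.19. The averaged ratios of the 21 probes ran from -0.35 to 0.23.

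Of the progenitor probes 32 after GA and 28 after SMART had a value on both arrays, and none was called in either method. After GA 5 had an adjusted p under 0.05 in limma (15.6%, a share near the 11.53% of all probes), 2 higher and 3 lower in replica 1. Emx1, a transcription factor of the dorsal forebrain, gave -0.81 and -0.56, and Cdh2, the N-cadherin of the ventricular surface, gave -0.67 and -0.50. Otx2, which patterns the forebrain, gave 0.64 and 0.44. Nr2f1, a nuclear receptor that patterns the cortex, gave 0.92 and 0.62 with 1 probe and -0.71 and -0.03 with another. The fifth was Hes1.

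Over the 32 probes 7 were positive and 16 negative on both GA arrays. After GA, Pax6, a determinant of cortical progenitors, gave -0.32 and -0.49, Msi1, an RNA-binding protein of stem cells, -0.25 and -0.26, and Fabp7, a fatty acid carrier of radial glia, -0.20 and 0.01. Lhx2, which specifies cortex, gave -0.01 and -1.16 after GA and 0.52 and -0.69 after SMART, so its arrays disagreed in both methods. Nes, the intermediate filament nestin, gave 0.48 and -0.00060 after GA and 0.08 and -0.54 after SMART. The largest SMART average in the list was Nr2f1 at -0.87 and -0.33, with its other probe at 0.23 and -0.14.

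Of 47 early neuron probes 38 after GA and 29 after SMART had a value on both arrays, and none was called. After GA 5 had an adjusted p under 0.05 in limma, 3 higher and 2 lower in replica 1 (13.2%, a share near the 11.53% of all probes). Neurod6, a transcription factor of cortical neurons, gave 0.75 and 0.67, Tubb3, the neuronal tubulin, gave 0.77 and 0.56, and Snap25, a protein of vesicle release, gave 0.54 and 0.53. Insm1, a zinc finger protein of newborn neurons, gave -0.81 and -0.45, and Dlx1, of ventral interneurons, gave -0.59 and -0.50. Over the 38 probes 14 were positive and 12 negative on both arrays.

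Gap43 gave 0.24 and 0.60 after GA and 0.96 and 0.21 after SMART, with adjusted p = 0.11 and 0.544 in limma. Its SMART average, 0.58, was the largest of the list in that method. Next came Neurog2 at 0.83 and 0.16, Elavl4, a neuronal RNA-binding protein, at 0.55 and 0.29, and Dcx, of migrating neurons, at 0.85 and -0.07. Array 1 was the higher one in each of these. Stmn1, a regulator of microtubules, reached 1.01 on SMART array 1 and -0.71 on array 2.

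**Figure D5:**
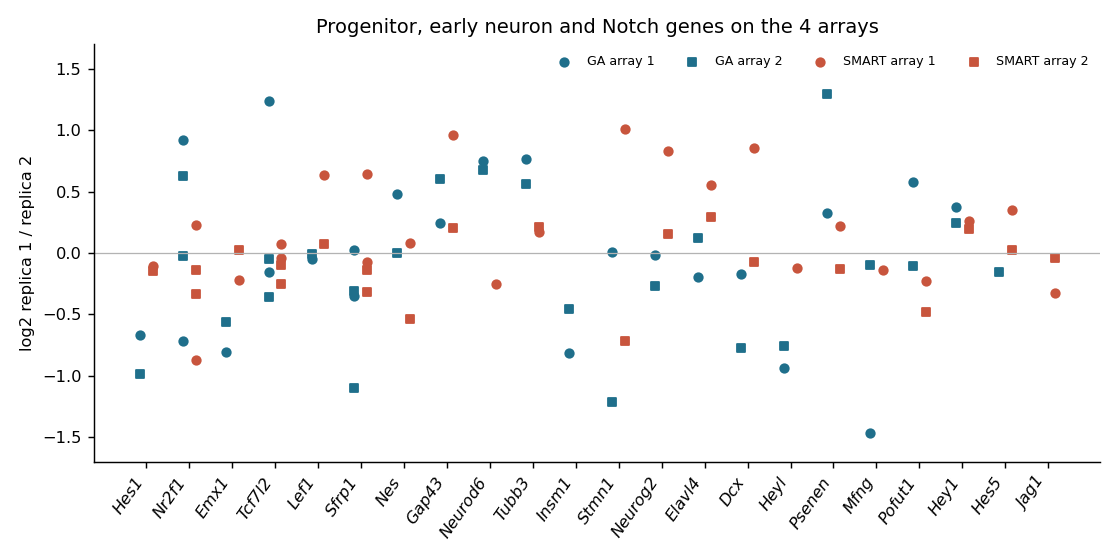
Log2 ratio of replica 1 over replica 2 on the 4 arrays for progenitor, early neuron and Notch genes, with circles for array 1 and squares for array 2; a gene with several probes has a symbol for each. Hes1, Emx1, Insm1 and Heyl lie below 0 and Neurod6 and Tubb3 above 0 on both GA arrays. These are genes with an adjusted p under 0.05 in limma after GA. Symbols of other genes lie on both sides of 0 after GA as well as after SMART, as for Tcf7l2 and Stmn1. Hes1 and Tubb3 also keep 1 sign on both SMART arrays.

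Respiratory chain genes had the highest share of calls among the lists. After GA 6 of 58 probes were called (10.3%, beside 3.14% of all probes), 5 higher and 1 lower. An adjusted p under 0.05 in limma was found for 16 (27.6%, beside 11.53% of all probes), 9 higher and 7 lower. Among those called, subunits of ATP synthase, complex II and complex I were represented. Of ATP synthase, Atp5h gave 1.28 and 0.97, Atp5j2 1.20 and 0.81, and Atp5c1 1.20 and 0.81. Of complex II, Sdhb gave 0.76 and 1.25, and of complex I there were Ndufa5 and Ndufa10. After SMART 2 of 59 were called (3.39%, beside 0.200% of all probes), again Ndufa10 and Ndufa5. The averaged CR of the list was 1.02 after GA and 0.65 after SMART, above the 0.704 and 0.355 of all probes.

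Ribosomal proteins, whose messages are abundant, had the lowest spread among the neural and housekeeping lists after GA. Of 69 probes 1 was called (1.45%, beside 3.14% of all probes), Rps23 at 0.85 and 0.79, and the CR was 0.48. After SMART none of 62 was called, the CR was 0.37, and Rps23 gave 1.01 and 0.06. In the list of other abundant genes 2 of 40 GA probes were called (5%, beside 3.14% of all probes). A probe of Eef2, the translation elongation factor, gave 0.72 and 0.90, and a probe of Actb, beta-actin, gave -0.91 and -0.69. Each gene had another probe measured on both GA arrays that was not called, at -0.068 and -0.010 for Eef2 and -0.24 and 0.20 for Actb. After SMART the Actb probes gave 0.08 and -0.19 and -0.45 and 0.51, and Fth1, the ferritin heavy chain, had the largest average at -1.16 and -0.50, without a call.

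Cell cycle genes differed in both directions after GA. Of 38 probes 1 was called, Ccna2 (2.63%, beside 3.14% of all probes), and 9 had an adjusted p under 0.05 in limma (23.7%, beside 11.53%), 5 higher and 4 lower in replica 1. Over the 38 probes 16 were positive and 11 negative on both arrays. Lower besides Ccna2 were 3 genes: Bub1, a spindle checkpoint kinase, gave -0.67 and -1.31, Plk1, a mitotic kinase, gave -0.67 and -0.89, and Cdc25c, which activates the mitotic cyclin kinase, gave -0.72 and -0.60. Higher were 5 genes: Mcm5 and Mcm4, of the replicative helicase, gave 0.85 and 0.62 and 0.67 and 0.47, and Cdc6, which loads it, gave 0.52 and 0.87. Ccnd1, the cyclin of G1 phase, gave 0.45 and 0.61, and Anln, which acts in cytokinesis, gave 0.67 and 0.74. Another probe of Mcm5, of Anln and of Plk1 had a value on GA array 2 only. It lay near 0, at 0.06 for Mcm5, -0.05 for Anln and 0.05 for Plk1. The helicase members Mcm2 and Mcm6 did not pass and gave -0.23 and -0.13 and -0.21 and -0.14, and Ube2c, a ubiquitin-conjugating enzyme of mitosis, gave 0.19 and 0.29. After SMART none of 33 was called, and the largest averages were Ube2c at -0.78 and -0.52 and Mcm4 at 0.69 and 0.46.

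Patterning genes and markers of other cells had no call in either method. After GA Spry2, an inhibitor of growth factor signals, gave 0.78 and 0.64, and Fgf8, a signal of the forebrain's organizing centers, gave -0.56 and -0.73. Among markers of other cells, 1 of 9 blood (11.1%) and 1 of 10 endothelial probes (10%) had an adjusted p under 0.05 in limma. So did 2 of 9 macrophage probes (22.2%), beside 11.53% of all probes. These probes were all higher in replica 1. They were Alas2 (blood) at 0.78 and 0.68, Esam (endothelium) at 1.03 and 0.67, and Itgam and C1qc (macrophages) at 0.55 and 1.03 and 0.55 and 0.47. Members on the other side of 0 on both GA arrays, without passing the test, were Epb42 (blood) at -0.27 and -0.30, Eng and Erg (endothelium) at -0.12 and -0.08 and -0.15 and -0.01, and Tyrobp (macrophages) at -0.55 and -0.21. The medians of the averaged ratios of these lists were 0.04, 0.07 and 0.11, beside -0.01 over all probes. The embryonic globin Hbb-y gave -0.02 and 0.01 after GA and 0.01 and -0.05 after SMART. No probe of the mesenchyme, surface epithelium or ovarian surface lists had an adjusted p under 0.05 in limma. The averaged CR of those lists was 0.35, 0.47 and 0.41 after GA.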

How the data were processed

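Each deposited value is a log2 ratio between the dyes of a single array. Per the methods, the authors scanned arrays of 65-mer oligonucleotides with GenePix, and, after background subtraction, applied limma's print-tip lowess to every array. These values were not normalized again. Ratios were read as Cy5 over Cy3, the likely direction (the paper gives both), and the opposite reading would turn every sign in both methods. Dyes and replicas were taken from the labels. Of 21997 probes 231 controls were left out, and none of these exceeded 2-fold. Gene names came from the platform annotation: 16632 probes have 1 symbol, 139 several and 4995 none. Of 16863 gene identifiers looked up, 16183 matched the RefSeq table and were brought up to date.

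Probes with a value on both arrays of a method were fitted with lmFit and eBayes in limma 3.58.1 (R 4.3.3). The prior proportion was 0.01 (the default, not stated in the methods), and probes were called at an LOD above 0. The study used this LOD threshold. Its results also name a P value of 0.01 for the Bayesian method, which was not applied here as a cutoff. P-values were adjusted over all probes tested. On simulated ratios the fit was tested with known changes. Permutation tests used scipy 1.17.1 and figures matplotlib 3.10.9 in Python 3.11.15. Genes named are, per method, up to 10 called genes with the largest averages in each direction (5 as values where none was called), up to 4 per list, Hes1, Gap43, and progenitor and Notch members. Genes named for the largest averages in a direction also had to have the same sign on both arrays. Other members with an adjusted p under 0.05, other probes of named genes, and Sox2, Hbb-y, Dll1, Mcm2, Mcm6, Eng, Erg and genes shared by the methods, were named after their values were seen. The members and lists were chosen with earlier results of these data known. Alternatives covered the threshold, prior, scaling, probes used and single arrays.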

Additional observations from a re-analysis of the deposited data

How the results depend on the processing

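The SMART CR stayed below the GA CR in each setting that kept the dye swap turned. The scaled median absolute deviation gave 0.583 for GA and 0.284 for SMART, and averaging as deposited, without turning, gave 0.355 and 0.361. Restricting the probes to those measured by both methods gave a GA CR of 0.657, with 49 probes over 2-fold after GA and 2 after SMART. A 2-fold difference on each array left 28 and 2. With 1 array in place of 2, over probes with a value on both arrays, the CR was 0.775 to 0.802 for GA and 0.463 to 0.547 for SMART. Of these probes 225 to 263 and 20 to 59 were over 2-fold. The single-array values given earlier used every probe measured on that array. Calls depended more on the setting. For GA 1352 were called at an adjusted p under 0.05, 1242 at a prior proportion of 0.05, 143 after array scaling and 199 in the joint fit of 4 arrays, and 115 to 124 when 1 array was left out of that fit, with the lone array assumed to vary like those of the other method. For SMART the same settings gave 1, 59 (15 higher), 44 (8 higher), 2, and 0 to 4. Where 0 were called, without replicate 1, 409 of 8299 tested probes had an unadjusted p under 0.05 in limma. That share is close to the 0.05 expected by chance. Without array 1 or array 2 both counts thus moved by over 1.5 times. The hybridization number is also the dye orientation and pairs no aliquots. Deviations of same-numbered arrays correlated at r = 0.251. With the hybridization number as replicate block 448 GA and 34 SMART probes were called, of 8182 tested. In an alternative chosen after seeing the data, 1234 and 0 had an adjusted p under 0.05 in limma. Of the same 8182 probes, 656 had an unadjusted p under 0.05 in limma for SMART. Of 56 alternative values 25 stayed close to the reported ones and 31 moved, and the cause was not tested. With 1 pool, 2 targets per method and no intensities, the spread between pools and the signal behind a ratio are unknown.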
